A study of Mus musculus with 6 samples.

Results

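Interferon-stimulated genes (ISGs) were followed in RNA-seq of mouse corneal epithelium with and without the NF-κB subunit RelA. The list held 40 genes matched by symbol: transcription factors, nucleic acid sensors and effectors of the interferon response. Of the 17554 genes in the deposited table, 38 were on the list. Mx1 and Mx2 had no row, so they are not analysed here. Of the 38, 37 passed the filter on low counts and were tested among 12667 genes. Iigp1, an immunity-related GTPase, had at most 0.03 FPKM (fragments scaled by transcript length and library size) in any sample and was not tested.

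Both groups were C57BL/6 mice of 2 months, with 3 samples each of corneal epithelium removed from the eye. The methods describe the samples as independent biological samples and do not say whether animals were pooled. The controls were labelled WT. The mutants were labelled Rela-/-, and in the study's methods the line is Krt14-Cre; Rela f/f, in which the keratin 14 promoter drives Cre, so that Rela is deleted in keratin 14 lineage epithelium and not in every cell of the mouse. Whether the WT mice carried floxed alleles or Cre is not given in the sources used here. No infection or interferon treatment is given for either group, and whether the eyes were free of such a stimulus was not tested. At this age the paper reports atrophy of basal cells in the central cornea of the mutants. It also reports that a biotin tracer leaked through their epithelium into the stroma.

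Type I and type III interferons bind receptors that activate JAK kinases. STAT2 then joins IRF9 in a complex that binds the interferon-stimulated response element (ISRE) in the promoters of ISGs. Type II interferon acts on another element, the gamma-activated site (GAS). RelA takes part upstream, at the gene for interferon beta, and kappa B sites also lie at some ISGs. In the cornea, ISGs form part of the defence of an epithelium that is open to viruses such as herpes simplex virus.

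RefSeq promoter windows on GRCm38.p6, 250 bases before to 50 bases after a gene's start, were found for 30 of the 40 genes. They were searched on both strands for an ISRE core (GAAA, any 2 bases, GAAA), a GAS (TTC, any 3 bases, GAA) and a kappa B motif (GGG, any 3 bases, TTCC). The ISRE core was present in 16 of these 30 genes (53.3%), against 3.99% of the 27025 genes with a window. A GAS stood in 9 of 30 (30.0%, against 9.55%), and the kappa B letters in 6 of 30 (20%, against 6.31%). A GAS reads alike on both strands and was counted once, and motifs that overlapped one another were each counted. A match of letters is a description and does not show that a factor binds. The 150 bases before the start of 4 genes are shown, 5′ to 3′ on the gene's strand with motif letters in capitals. They were chosen as 2 genes with an ISRE that fell in the mutants (Isg15 and Rsad2), 1 with an ISRE that did not pass the test (Ifit1), and the most highly expressed gene of the list, which has a GAS (Irf1).
Isg15, chr4:156200819-156200968, minus strand: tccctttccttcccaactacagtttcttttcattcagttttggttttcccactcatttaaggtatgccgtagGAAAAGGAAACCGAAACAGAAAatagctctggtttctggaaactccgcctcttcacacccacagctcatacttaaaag
Rsad2, chr12:26456453-26456602, minus strand: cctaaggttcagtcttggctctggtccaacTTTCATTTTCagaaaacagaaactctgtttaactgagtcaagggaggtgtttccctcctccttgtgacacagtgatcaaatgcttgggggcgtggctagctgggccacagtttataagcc
Ifit1, chr19:34640739-34640888, plus strand: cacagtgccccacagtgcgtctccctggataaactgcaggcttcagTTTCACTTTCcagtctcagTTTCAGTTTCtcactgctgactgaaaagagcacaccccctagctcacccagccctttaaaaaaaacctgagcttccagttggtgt
Irf1, chr11:53769864-53770013, plus strand: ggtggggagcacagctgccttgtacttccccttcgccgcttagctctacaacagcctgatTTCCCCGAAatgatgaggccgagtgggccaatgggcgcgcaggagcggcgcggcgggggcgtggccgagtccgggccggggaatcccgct
In Isg15 the capitals cover 3 overlapping ISRE cores that begin 78, 72 and 66 bases before the start. In Rsad2 a single core begins 120 bases before it, and in Ifit1 2 cores begin 104 and 85 bases before it, all on the opposite strand. In Irf1 the capitals mark a GAS that begins 90 bases before the start. The kappa B search used a single spelling, so kappa B sites spelled otherwise are not marked, in Irf1 or elsewhere.

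Rela itself served as the check of the labels. Its FPKM was 36.47, 34.71 and 33.43 in the controls and 4.93, 5.53 and 5.72 in the mutants, a fall of 85.1% (log2 fold change -2.75, SE 0.08, adjusted p = 5.5e-07 in edgeR, by the quasi-likelihood method and with Benjamini-Hochberg correction for all genes tested). The groups were far apart and matched their labels. Mutant sample 1 stood apart from its group. The chi-square of counts per degree of freedom was 19.8 and 27.6 between it and mutant samples 2 and 3, against 9.88 between those and 8.60 to 10.4 among the controls. Without it the log2 fold changes given later were 0.15 for Samd9l, 0.84 for Zbp1, 1.37 for Ifngr1, 3.01 for Tmem173 and 2.38 for Ifitm3. Each sample held 19492942 to 19733834 expected counts, so 3 counts corresponded to 0.152 to 0.154 CPM (counts scaled by library size alone).
The epithelial markers Krt12 and Krt5 stood at 17005.0 to 21194.0 and at 10805.8 to 12786.3 FPKM, whereas Ptprc, which marks all leukocytes, was at most 0.15 FPKM. Itgam and Cd68, also used as leukocyte markers below, were higher, at 50.97 to 94.77 and 17.31 to 24.54 FPKM over both groups. Krt14, whose promoter drives the Cre, rose 9.98-fold in the mutants (adjusted p = 1.1e-05 in edgeR).

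The ISGs were expressed over a wide range in the corneal epithelium of both groups (plot of FPKM by gene). Of the 38 genes in the table, 17 had a mean of at least 10 FPKM over the 6 samples, 18 lay between 1 and 10 FPKM and 3 were lower. The highest was Irf1, a transcription factor induced by type II interferon and by NF-κB, with a mean of 128.6 FPKM. It measured 118.0, 120.58 and 138.03 FPKM in the controls and 154.85, 128.22 and 112.01 in the mutants, and the groups overlapped. Oasl2 and Oasl1, members of the oligoadenylate synthetase family, came next with means of 91.1 and 77.9 FPKM. Oasl2 measured 91.78, 81.62 and 88.33 FPKM in the controls and 92.46, 105.02 and 87.45 in the mutants. Oasl1 measured 77.0, 68.06 and 97.45 FPKM in the controls and 70.12, 87.94 and 66.61 in the mutants. Oasl2 was above Oasl1 in every sample except control sample 3 (88.33 against 97.45 FPKM), so their order was not the same in all samples. Trim25, a ubiquitin ligase that acts on RIG-I, measured 45.14, 48.96 and 49.04 FPKM in the controls and 56.3, 41.69 and 39.88 in the mutants. Samd9l, an antiviral factor that restricts translation, measured 37.78, 33.95 and 37.75 FPKM in the controls and 55.48, 42.78 and 38.14 in the mutants. The mutant samples of Samd9l were all above the controls, the lowest of them by little, and its adjusted p was 0.15 in edgeR (log2 fold change 0.32, SE 0.13). At the lower end were Gbp3, Ifit2, Ifi44 and Rsad2, with means of 1.09, 1.00, 0.783 and 0.290 FPKM.

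**Figure D1:**
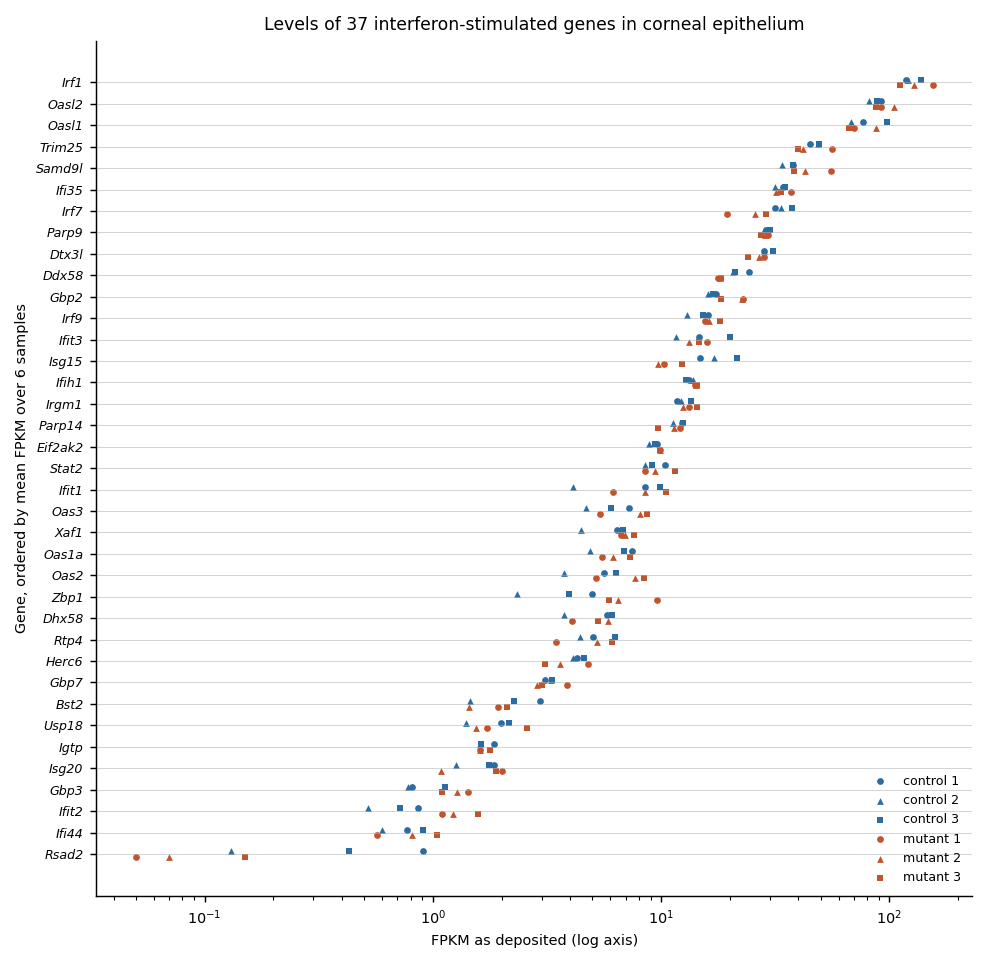
FPKM of the 37 tested genes in every sample, on a log axis, with control samples in blue, mutant samples in red and the marker shape giving the sample number. The genes span from Rsad2 at 0.05 FPKM to Irf1 at 154.85 FPKM, and in most rows the blue and red points overlap.

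The comparison of mutant with control samples asked whether the levels of the ISGs differed in epithelium that had lost RelA. Most of the list did not pass the test. Of 37 genes tested, 2 were higher (5.41%, against 7.82% of all genes tested) and 4 were lower (10.8%, against 5.42%) at an adjusted p under 0.05. The higher genes were Zbp1 and Ifit2, and the lower genes were Isg15, Irf7, Ddx58 and Rsad2. The remaining 31 lay between log2 fold changes of -0.28 (Bst2) and 0.44 (Gbp3), and for each of them the 95% interval of the difference lay within 2-fold in either direction. The median log2 fold change over the 37 genes was 0.06, beside -0.0028 over all genes tested. Under the stricter rule, which asks for 2-fold or more and for an adjusted p no greater than 0.001, 0 of the 37 genes passed in edgeR, DESeq2 or limma on log2(FPKM + 1) or log2(FPKM + 0.1), against 1.37% of all genes tested in edgeR. At an unadjusted p under 0.05, edgeR gave 8 of the 37 (21.6%, against 28.1% of all genes tested).
By FPKM, all mutant samples exceeded all control samples in 6 genes (16.2%, against 17.5% of all genes tested) and lay below them in 3 (8.11%, against 15.2%).

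**Figure D2:**
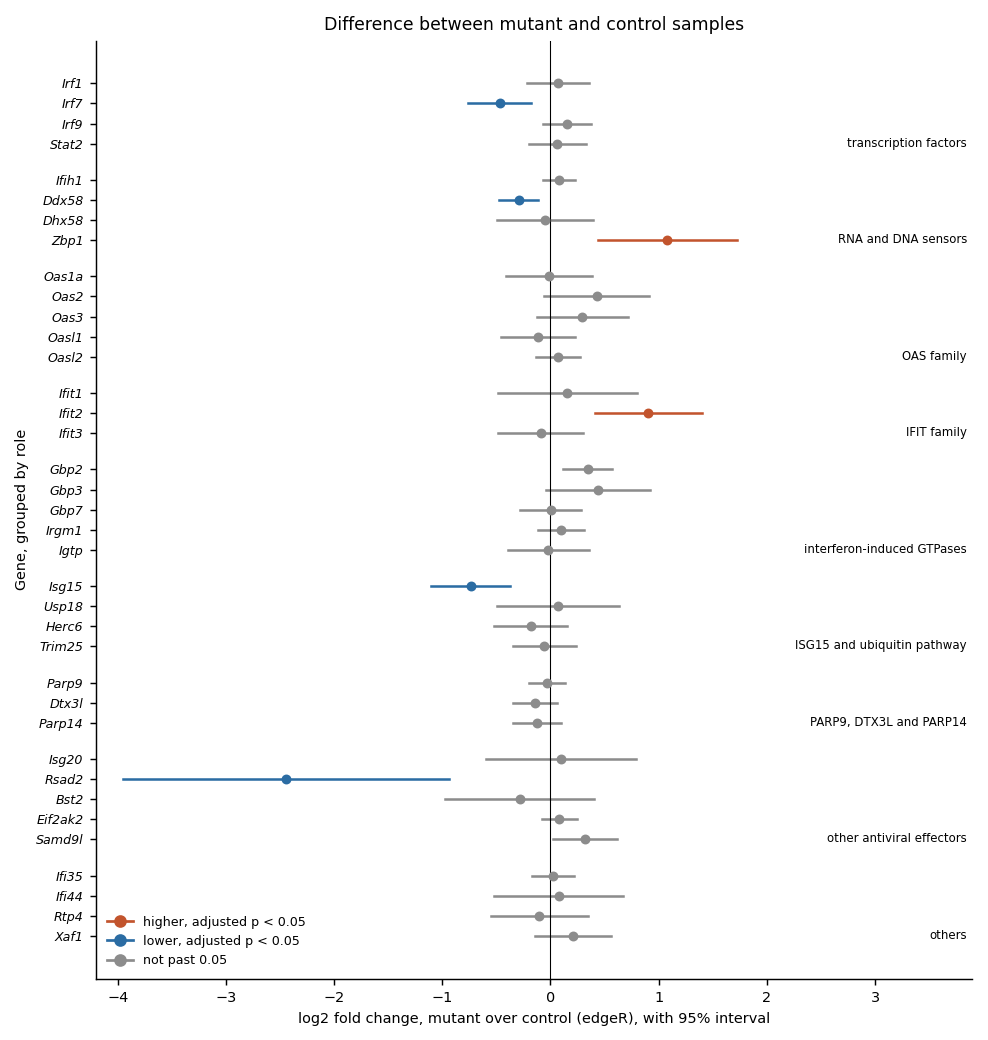
Log2 fold change of mutant over control for the 37 tested genes, grouped by role, with the 95% interval from edgeR as a horizontal line. Red and blue mark genes past an adjusted p of 0.05, higher and lower. Zbp1 and Ifit2 lie to the right of 0, Isg15, Irf7, Ddx58 and Rsad2 to the left, and the other 31 lie between -0.28 and 0.44.

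The calls depended on which samples were in the fit. No gene of the list passed an adjusted p of 0.05 in edgeR without control sample 3 or without mutant sample 2, although 999 and 1185 genes in the whole table still did. Unadjusted p under 0.05 was then reached by 9 and 8 of the list (24.3% and 21.6%, against 23.6% and 24.7% of all genes tested). Without control sample 1 the calls were Zbp1, Ifit2 and Isg15, and without control sample 2 they were Ddx58 and Rsad2. Without mutant sample 1 they were Ifit2, Irf7, Ddx58 and Isg15, and without mutant sample 3 they were Zbp1, Irf7, Isg15, Rsad2, Gbp2 and Samd9l. The direction of the 6 genes was the same in each of these fits. With FPKM in place of counts, limma on log2(FPKM + 1) called only Ifit2 and Isg15, losing Zbp1, Irf7, Ddx58 and Rsad2 (adjusted p of 0.051, 0.057, 0.058 and 0.14). Limma on log2(FPKM + 0.1) also called Zbp1 and again lost Irf7, Ddx58 and Rsad2 (0.052, 0.055 and 0.090).

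Isg15 (chr4:156199424-156200818), the ubiquitin-like protein that is conjugated to targets during the interferon response, fell in the mutants. Coordinates of genes are those of the deposited table, on GRCm38. The FPKM of Isg15 was 14.89, 17.11 and 21.53 in the controls (mean 17.8 ± 3.38, SD, n = 3) and 10.27, 9.69 and 12.35 in the mutants (mean 10.8 ± 1.399, SD, n = 3). Every mutant sample lay below every control sample. The decrease was 39.9% (log2 fold change -0.74, SE 0.16, adjusted p = 0.017 in edgeR). With 1 sample left out at a time, the log2 fold change ran from -0.86 to -0.56, and the adjusted p rose to 0.054, 0.058 and 0.061 without control sample 2, control sample 3 and mutant sample 2. The partners of Isg15 in the list did not pass. These were Usp18, the protease that removes ISG15 from proteins, the ligase Herc6 and Trim25, with log2 fold changes from -0.18 to 0.07 and adjusted p from 0.48 to 0.89 in edgeR.

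Irf7 (chr7:141263169-141266499), the transcription factor that amplifies type I interferon production, fell. Of the 4 transcription factors of the list, Irf7 alone passed (25%, against 5.42% of all genes tested that fell). Its FPKM was 31.47, 33.65 and 37.35 in the controls and 19.53, 25.86 and 28.75 in the mutants. The groups did not overlap, and the mutant level was 27.8% lower (log2 fold change -0.47, SE 0.13, adjusted p = 0.042 in edgeR). The adjusted p rose above 0.05 without each of the 3 control samples in turn (0.060, 0.11 and 0.15) and without mutant sample 2 (0.079). Irf1 did not pass, nor did Irf9 and Stat2, which both encode parts of the complex that binds the ISRE. Their log2 fold changes ran from 0.06 to 0.16 and adjusted p from 0.34 to 0.77 in edgeR. The RefSeq window of Irf7 held none of the 3 motifs as spelled here.

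Among the 4 sensors, 1 fell (25%, against 5.42% of all genes tested), 1 rose (25%, against 7.82%) and 2 did not pass. Ddx58 (chr4:40203777-40239825), which encodes the RNA sensor RIG-I, was at 24.41, 20.67 and 21.18 FPKM in the controls and at 17.76, 18.07 and 18.28 in the mutants. The groups did not overlap and the mutant samples were close to each other. The decrease was 18.5% (log2 fold change -0.29, SE 0.08, adjusted p = 0.039 in edgeR), and the adjusted p was 0.13, 0.093, 0.095 and 0.078 without control sample 1, control sample 3, mutant sample 2 and mutant sample 3.
Zbp1 (chr2:173206612-173218922), a sensor of Z-form nucleic acid that can trigger necroptosis, rose. Its FPKM was 4.99, 2.33 and 3.96 in the controls and 9.62, 6.49 and 5.91 in the mutants. All mutant samples were above all controls, the rise being 2.12-fold (log2 fold change 1.08, SE 0.29, adjusted p = 0.036 in edgeR). The adjusted p was 0.088, 0.088, 0.067 and 0.062 without control sample 2, control sample 3, mutant sample 1 and mutant sample 2. Ifih1 and Dhx58, which encode the related RNA sensors MDA5 and LGP2, had log2 fold changes of 0.08 and -0.05, with adjusted p of 0.48 and 0.90 in edgeR.

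**Figure D3:**
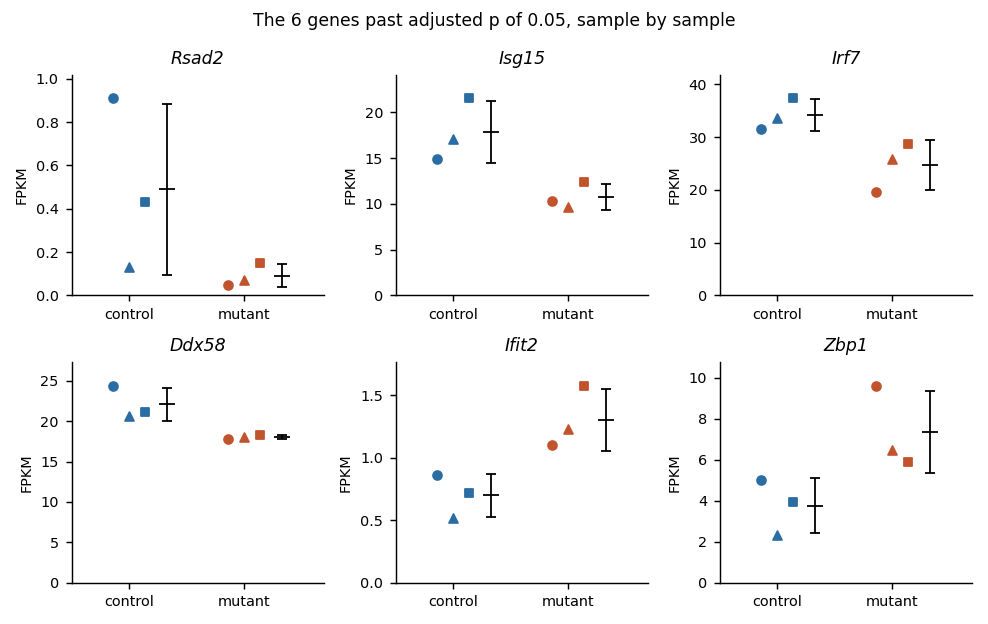
FPKM of the 6 genes past an adjusted p of 0.05, each axis starting at 0, with 1 point per sample (control blue, mutant red) and the mean with SD (n = 3) in black beside each group. The groups are separate for Isg15, Irf7, Ddx58, Ifit2 and Zbp1, and overlap for Rsad2, where control sample 2 at 0.13 FPKM lies under mutant sample 3 at 0.15 FPKM.

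Rsad2 (chr12:26442743-26456452), which encodes the antiviral enzyme viperin, had the largest difference and the lowest level of the genes tested in the list. Its FPKM was 0.91, 0.13 and 0.43 in the controls and 0.05, 0.07 and 0.15 in the mutants. In counts these were 68, 10 and 32 against 4, 5 and 11. Control sample 2 lay inside the range of the mutants, so the groups overlapped. The fitted decrease was 81.6% (log2 fold change -2.44, SE 0.67, 95% interval -3.95 to -0.94, adjusted p = 0.041 in edgeR), and the adjusted p was 0.14 without control sample 1, 0.094 without control sample 3, 0.080 without mutant sample 1 and 0.12 without mutant sample 2. On the log2(FPKM + 1) and log2(FPKM + 0.1) scales of limma, which shrink differences at low levels, the log2 fold change was -0.42 and -1.42 and did not pass. The other effectors Isg20, an exonuclease, Bst2 (tetherin), Eif2ak2, the kinase PKR, and Samd9l had log2 fold changes from -0.28 to 0.32 and did not pass.

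The 3 IFIT genes encode proteins with tetratricopeptide repeats that bind foreign RNA and lie together on chromosome 19. Ifit2 (chr19:34550549-34576534, GRCm38) rose, from 0.86, 0.52 and 0.72 FPKM in the controls to 1.1, 1.23 and 1.58 in the mutants. The groups did not overlap, at 40 to 67 counts against 86 to 124. The rise was 1.87-fold (log2 fold change 0.90, SE 0.22, adjusted p = 0.026 in edgeR), and the adjusted p was 0.091, 0.072, 0.058 and 0.071 without control sample 2, control sample 3, mutant sample 2 and mutant sample 3. Ifit1 and Ifit3 did not pass, with log2 fold changes of 0.16 and -0.09, although both are more highly expressed, with means of 7.95 and 15.045 FPKM. Ifit1 measured 8.48, 4.13 and 9.87 FPKM in the controls and 6.18, 8.52 and 10.5 in the mutants, so the spread within each group was wider than the gap between them. Ifit3 shares 51.2% of its 50-base transcript windows with its copy Ifit3b, so their counts are uncertain. Ifit2 shares none.

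No member of the OAS family passed, in edgeR, DESeq2 or limma, or at an unadjusted p under 0.05. These enzymes make the oligoadenylates that activate RNase L, and Oasl1 is a relative without that main role. Oas2 had the largest difference among the 5, at 5.61, 3.75 and 6.36 FPKM in the controls and 5.21, 7.7 and 8.39 in the mutants. The groups overlapped (log2 fold change 0.43, SE 0.22, 95% interval -0.06 to 0.91, adjusted p = 0.23 in edgeR). The other 4 ran from -0.12 to 0.30. Oas1a shares 57.6% of its windows with Oas1g, so its counts are uncertain.

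The interferon-induced GTPases, which include guanylate-binding and immunity-related GTPases that act at pathogen vacuoles, gave no call in edgeR or limma either, with 5 of 8 tested. Gbp2 came nearest, as the single one at an unadjusted p under 0.05. It measured 17.4, 16.09 and 16.93 FPKM in the controls and 22.98, 22.67 and 18.38 in the mutants, without overlap (log2 fold change 0.34, SE 0.10, adjusted p = 0.056 in edgeR). DESeq2 gave Gbp2 an adjusted p of 0.036, and edgeR without mutant sample 3 gave 0.0081. Gbp3 had the highest log2 fold change of the genes that did not pass, at 0.44 (SE 0.22, adjusted p = 0.21 in edgeR), with 0.81, 0.78 and 1.13 FPKM in the controls and 1.43, 1.27 and 1.1 in the mutants. Its groups overlapped. Gbp7, Irgm1 and Igtp lay between -0.02 and 0.10. Parp9, Dtx3l and Parp14, an ADP-ribosyltransferase module with a partner ubiquitin ligase, lay between -0.14 and -0.03 with 95% intervals inside -0.35 and 0.14. Parp9 and Dtx3l overlap on opposite strands and share 8.97% and 8.09% of their windows. Whether reads were counted by strand is not given in the sources used here. Ifi35, Ifi44, Rtp4 and Xaf1 lay between -0.10 and 0.21.

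Samples within a group differed from each other in the same direction across many of these genes (plot of deviations by sample). Control sample 2 was the lowest of the 3 controls in 29 of the 37 genes (78.4%), while it was the lowest in 36.4% of all genes tested. Control sample 3 was the lowest in 1 gene of the list (2.70%, against 31.9% of all genes). The median deviation of the list from the control mean, on the scale of log2(CPM + 0.5), was -0.13 in control sample 2 and 0.12 in control sample 3, beside -0.0045 and 0.0023 for all genes. In the mutants the medians were 0.02, 0.01 and 0.04, so all 3 lay between control samples 2 and 3. On the same scale, the genes furthest down in control sample 2 were Rsad2 and Ifit1. The mean log value of control samples 1 and 3, turned back to a fold, was 2.90-fold and 2.19-fold higher. Zbp1 (1.94-fold), Oas2 (1.61-fold) and Dhx58 (1.57-fold) followed. The added 0.5 CPM shrinks these folds at low levels. In counts, Rsad2 had 10 in control sample 2 against 68 and 32 in control samples 1 and 3. The SD between controls had a median of 0.16 over the list and 0.11 over all genes, and in the mutants 0.21 and 0.13. These shares are counts of genes that vary together and not of separate replicates.
Without control sample 2 the median log2 fold change of the list was -0.06, and without control sample 3 it was 0.09.

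**Figure D4:**
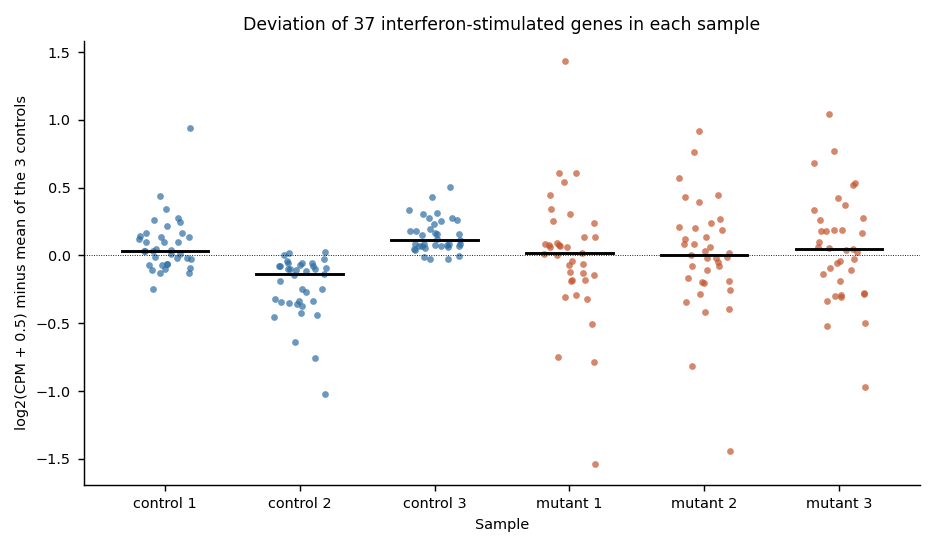
Log2(CPM + 0.5) of the 37 tested genes in each sample minus the mean of the 3 controls, with 1 point per gene and the median as a black bar. The median of control sample 2 lies at -0.13, that of control sample 3 at 0.12, and those of the mutants between 0.01 and 0.04, with a wider scatter of genes.

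Among the 16 genes with an ISRE core, 0 rose (against 7.82% of all genes tested) and 3 fell (18.8%, against 5.42%) in edgeR. The 3 were Isg15, Ddx58 and Rsad2, of which both limma fits called only Isg15. At an unadjusted p under 0.05 in edgeR, 1 was higher (Gbp2, which rose in DESeq2), and none rose in limma. The median log2 fold change of the 16 was 0.03. For Ddx58 the core begins 3 bases after the start. Among the 14 with a window and no ISRE core, Ifit2 rose and Irf7 fell, with a median of 0.07. Of the 6 genes with kappa B letters, Ifit2 rose and the others (Bst2, Gbp2, Isg20, Oas3 and Xaf1) did not pass, with a median of 0.25. The 24 with a window and none of these letters held all 4 genes that fell and had a median of 0.01. Genes with only a kappa B site spelled otherwise would be counted among these 24. Of the 9 genes with a GAS, Ifit2 rose and the others did not pass, with a median of 0.02. The 21 without a GAS also held the 4 genes that fell and had a median of 0.07. These groups are small and overlap, and no difference between them was tested. Zbp1 had no window.

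The genes upstream of the list, other than its own members, were read from lists of the receptors and JAK-STAT components, the interferon genes and the genes of interferon induction. Of 15 receptor and JAK-STAT genes, all tested, 4 rose (26.7%, against 7.82% of all genes tested) and 0 fell (against 5.42%) in edgeR, as in DESeq2 and both limma fits, with 1 lower at an unadjusted p under 0.05. Ifngr1, the ligand-binding chain of the receptor for type II interferon, rose 2.85-fold, from 31.56, 31.72 and 32.81 FPKM to 108.46, 87.43 and 78.73 (log2 fold change 1.51, SE 0.12, adjusted p = 7.0e-05 in edgeR). The partner chain Ifngr2 was at 54.37, 54.95 and 60.65 FPKM in the controls and 60.34, 52.69 and 50.1 in the mutants (log2 fold change -0.06, adjusted p = 0.72). Socs1, a feedback inhibitor of JAK kinases that interferons induce, rose 1.88-fold (1.39, 1.58 and 1.74 against 3.07, 2.63 and 3.01 FPKM, adjusted p = 0.014 in edgeR). Stat3 rose 1.35-fold (adjusted p = 0.0045) and Pias1, an inhibitor of STAT signalling, 1.199-fold (adjusted p = 0.034). The call of Socs1 was lost without control sample 1 or 2 (adjusted p of 0.062 and 0.063), and that of Pias1 when any sample other than mutant sample 1 was left out (0.053 to 0.12). The receptor genes Ifnar1, Ifnar2, Ifnlr1 and Il10rb had log2 fold changes of 0.04, 0.25, -0.02 and 0.12 and did not pass.

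Transcripts of the interferons themselves were near or under the limit of detection. Of 21 interferon genes searched, 11 had a row, none was tested, and the largest count of any of them in a sample was 5. Their counts summed to 0 to 14 per sample, and a count of 0 allows a level of up to 3 counts (0.152 to 0.154 CPM).
Of 16 tested genes of interferon induction, 3 rose (18.8%, against 7.82% of all genes tested) and 0 fell (against 5.42%) in edgeR, as in DESeq2 and both limma fits, with 1 lower at an unadjusted p under 0.05. Tmem173, which encodes the DNA-sensing adaptor STING, rose from 0.09, 0.21 and 0.14 FPKM to 2.26, 1.2 and 1.41 (log2 fold change 3.35, SE 0.39, adjusted p = 6.0e-04 in edgeR). It kept its call without each sample in turn, but its counts in the controls were only 4, 9 and 6. It thus passed the filter on low counts only through the mutants. With at least 10 counts in every sample, Tmem173 was not tested and 2 genes of this list rose. In limma on log2(FPKM + 1) the log2 fold change of Tmem173 was 1.17 (adjusted p = 0.0013). Nfkb1, the NF-κB subunit p105/p50, rose 1.36-fold (adjusted p = 0.017) and Myd88, an adaptor of Toll-like receptors, 1.25-fold (adjusted p = 0.031). Without single samples the count of this list ran from 1 to 3, at its lowest without control sample 2 or 3, where Nfkb1 (0.059 and 0.074) and Myd88 (0.12 and 0.096) were lost. Nfkb1 was also lost without control sample 1 (0.063), and Myd88 without each mutant sample in turn (0.051 to 0.063). Irf3, the factor that switches on interferon beta, was at 39.2, 35.89 and 37.69 FPKM in the controls and 35.33, 35.22 and 33.65 in the mutants, without overlap, and did not pass (log2 fold change -0.13, SE 0.08, adjusted p = 0.30 in edgeR).

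A further list of 68 interferon-induced genes outside the 40 had 55 tested, of which 9 rose (16.4%, against 7.82% of all genes tested) and 0 fell in edgeR. With at least 10 counts in every sample, 8 rose. DESeq2 and both limma fits also gave 0 that fell, and 3 were lower at an unadjusted p under 0.05 in edgeR. The median log2 fold change was 0.12. The smallest adjusted p values belonged to Ifitm3, Ifitm2, Pnpt1, Ly6e and Mlkl. Ifitm3, a membrane protein that blocks virus entry, rose 5.80-fold, from 17.56, 10.73 and 12.22 FPKM to 93.44, 55.74 and 86.34 (adjusted p = 1.2e-04 in edgeR). Ifitm2 rose 1.77-fold, from 70.64, 61.28 and 59.79 FPKM to 119.71, 92.25 and 127.32 (adjusted p = 0.0020), although 48.5% of its 50-base windows are shared with other genes. Mlkl, the executor of necroptosis downstream of ZBP1, rose 2.56-fold, from 1.73, 0.85 and 1.38 FPKM to 3.25, 3.12 and 3.76 (adjusted p = 0.0040). Ly6e, a membrane-anchored protein that restricts some viruses, rose 1.51-fold (adjusted p = 0.0039), and Pnpt1, a mitochondrial exoribonuclease, 1.42-fold (adjusted p = 0.0024). All 5 kept their call in each fit that left out 1 sample. In the whole list the number that rose ran from 6 to 10 in these fits, being 6 without control sample 2 or 3, and 3 of the list fell without mutant sample 1.

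**Figure D5:**
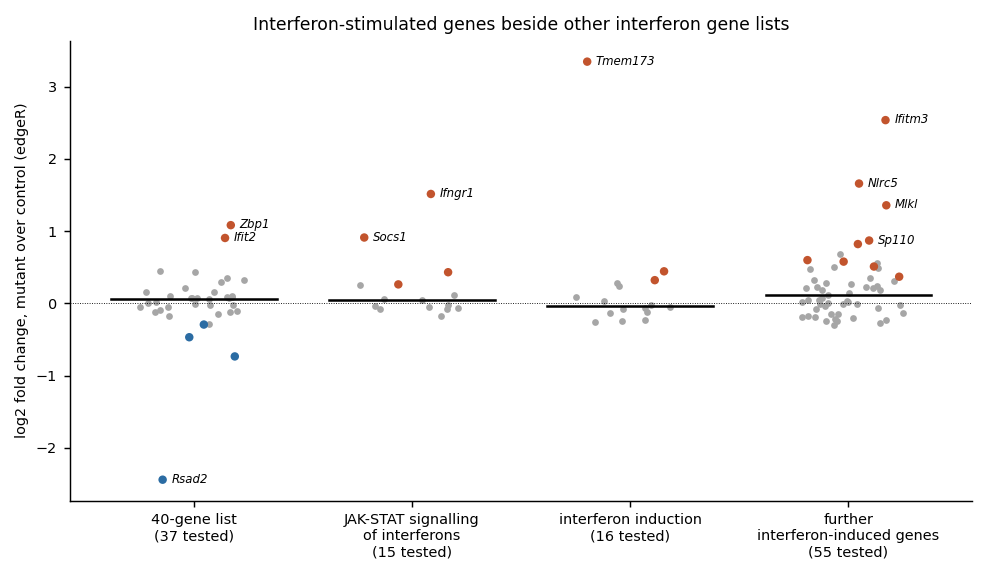
Log2 fold change of mutant over control for the genes tested in the 40-gene list and in 3 further lists, with 1 point per gene, the median as a black bar, and genes past an adjusted p of 0.05 in red (higher) or blue (lower). The medians lie between -0.04 and 0.12. Every gene past the threshold in the 3 further lists rose, with Tmem173 at 3.35 and Ifitm3 at 2.54, while in the 40-gene list 2 rose and 4 fell.

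Fewer or more cells of a type and a change of RNA per cell cannot be told apart in bulk samples. Markers of other cells were checked for each sample. Of 10 leukocyte and macrophage markers 5 were tested and 2 rose (40%, against 7.82% of all genes tested). These were C1qb (0.29, 0.3 and 0.29 against 0.84, 0.59 and 0.73 FPKM, adjusted p = 0.043 in edgeR) and Cd14 (1.68-fold, adjusted p = 0.048). C1qb had 6 counts in each control and passed the filter on low counts only through the mutants. Both limma fits also gave 2, and DESeq2 gave 0. The summed level of the list was 83.2 to 90.6 FPKM in the controls and 76.4 to 123.3 in the mutants. Itgam (63.85 to 67.15 and 50.97 to 94.77 FPKM) and Cd68 (17.31 to 21.84 and 22.11 to 24.54 FPKM) made up nearly all of this sum, while Ptprc was at most 0.15 and Csf1r at most 0.22 FPKM, and Fcgr1 had under 3 counts in every sample. The dendritic and Langerhans list summed to 5.25 to 7 FPKM in the controls and 6.38 to 11.6 in the mutants with no call in edgeR, DESeq2 or limma and 1 of 3 at an unadjusted p under 0.05, Cd207 having under 3 counts. T and NK cell markers summed to at most 0.630 FPKM and endothelial markers to at most 0.240. Neutrophil markers summed to 13.9 to 25.3 FPKM in the controls and 15 to 54.5 in the mutants with no call among 4 tested by these tools and 1 at an unadjusted p under 0.05. Goblet cell and melanocyte markers summed to at most 2.32 and 5.25 FPKM, with no call by any of them. Of 7 corneal epithelial markers tested, Krt14 and Clu rose (28.6%, against 7.82% of all genes tested) and Aldh3a1 fell (14.3%, against 5.42%) in edgeR. The adjusted p of Aldh3a1 was 0.047 in edgeR. Both limma fits gave 0 of these markers that fell, and DESeq2 gave 2. The keratocyte list summed to at most 0.630 FPKM in the controls and 0.760 to 4 in the mutants, without overlap. Dcn, the single gene of it tested, rose from at most 0.08 FPKM to 0.39 to 1.80 (adjusted p = 0.0051). It had 1 to 3 counts in the controls and passed the filter on low counts only through the mutants. Vim (at most 0.06 against 0.25 to 0.53 FPKM) and Col1a1 (at most 0.02 against 0.05 to 0.20 FPKM) were also higher in each mutant sample. The groups overlapped for Lum (at most 0.02 against 0 to 0.57 FPKM) and Col1a2 (at most 0.05 against 0.01 to 0.19 FPKM). They also overlapped for Ptgds (0.31 to 0.46 against 0.06 to 0.66 FPKM), while Kera and Aldh1a2 had under 3 counts. The part of these cells in the differences of the ISGs was not tested.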

How the data were processed

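Corneal epithelium of control and mutant mice, 3 samples each, was profiled by RNA-seq. The authors aligned reads with Bowtie2 2.2.5 and deposited RSEM 1.2.12 expected counts and FPKM per gene and sample, per the labels and the study's methods. The submitters' notes name mm9, but the chromosome accessions in the table are those of GRCm38. The labels name a TruSeq kit and the methods an rRNA removal kit, and strand is not given in the sources used here. The deposited averages, fold changes, p-values and q-values of the authors' own comparison were not used. Expected counts were rounded and tested with edgeR 4.0.16 (TMM, filterByExpr with a minimum count of 10 and a total of 15, quasi-likelihood test) in R 4.3.3, with Benjamini-Hochberg adjustment over 12667 genes. A call is an adjusted p under 0.05, and the stricter rule is the one in the study's methods. Alternatives were DESeq2 1.42.0, limma 3.58.1 on log2(FPKM + 1) and log2(FPKM + 0.1), other scaling and filters, a replicate block and each sample left out. Fits were tested on simulated data. FPKM was used as deposited for levels between genes. The members and lists were chosen with earlier results of these data known. Values in every sample are given for members past 0.05, the 5 members with the highest mean FPKM and the 3 with the largest differences that did not pass, and for Rela, Irf3, the receptors and up to 5 genes a pathway list in full or in part. A further gene that this rule names is not reported here. The share of 50-base windows, the read length in the methods, found in another gene was taken from GENCODE M21 transcripts. The 95% intervals of fold changes come from the edgeR fit and include the spread between samples, floors of 3 counts cover counting error only, and no 2 samples of a group agreed within sampling noise.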

Additional observations from a re-analysis of the deposited data

How the results depend on the processing

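The median of 0.06 over the list was 0.036 with no filter on low counts and 0.022 in both limma fits, and ran from -0.058 to 0.092 with 1 sample left out. The count of genes higher ran from 0 to 3 and of genes lower from 0 to 3 when 1 sample was left out, against 2 and 4 with all samples. Limma on log2(FPKM + 1) gave 1 higher and 1 lower, and limma on log2(FPKM + 0.1) gave 1 lower. No gene met the stricter rule (2-fold and an adjusted p up to 0.001) in any fit, whereas an adjusted p up to 0.05 gave 2 genes with the same fold limit and 4 with 1.5-fold. The share of all genes at these looser limits is not given here. Of genes named without a call, Irf1 ran from -0.073 to 0.18, Oasl2 from -0.0026 to 0.14, Oasl1 from -0.25 to 0.057, Trim25 from -0.24 to 0.046, Ifngr2 from -0.15 to 0.0039 and Ifnlr1 from -0.11 to 0.0922 with 1 sample left out, so their sign was not fixed. The 6 genes with a call had the same direction in every fit, and with at least 10 counts in every sample Rsad2 was not tested. Rela ran from -2.78 to -2.49. Over all genes the calls numbered 1678, and 1121, 857, 999 and 1185 without control sample 1, control sample 2, control sample 3 and mutant sample 2. The strict rule, at 173 genes, gave 342 in DESeq2, 114 in limma on log2(FPKM + 1), and 36 to 193 with 1 sample left out. Same-numbered samples did not deviate together (correlations 0.02, 0.05 and -0.05), so the numbers were not taken as pairs. The replicate block gave 2 genes higher and 3 lower in the list, without Ddx58 (adjusted p = 0.073 in edgeR), a median of 0.06, 0 genes under the strict rule, and -2.75 for Rela. It also ended the call of Pias1 (adjusted p = 0.078), which left 3 JAK-STAT genes higher. Low counts limit Rsad2, Ifit2 and, in the controls, Tmem173.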

Other observations

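Of the 9 further interferon-induced genes that rose, the 4 not yet described were Nlrc5, a regulator of MHC class I genes, Sp110, a nuclear body protein, Ifitm1 and Slfn9. Nlrc5 rose from 0.05, 0.04 and 0.05 FPKM in the controls to 0.13, 0.15 and 0.14 in the mutants, or 5 to 7 counts against 19 to 21 (log2 fold change 1.66, SE 0.32, adjusted p = 0.0093 in edgeR). It passed the filter on low counts only through the mutants. Sp110 rose from 1.43, 1.49 and 1.27 FPKM to 2.47, 3.02 and 2.12 (adjusted p = 0.014). Ifitm1, the most highly expressed of these, rose from 642.33, 651.48 and 676.43 FPKM to 1205.11, 957.05 and 777.58 (adjusted p = 0.028), and Slfn9 rose 1.29-fold (adjusted p = 0.047). The genes of antigen processing Tap1, Tap2, Psmb8, Psmb9 and Psmb10 in this list did not pass in edgeR. Their log2 fold changes were -0.01, -0.03, -0.06, -0.27 and 0.25.

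Cmpk2, a nucleotide kinase whose gene lies beside Rsad2 on chromosome 12 (chr12:26469212-26479837), was singled out after its values were seen. It had 60, 4 and 43 counts in the controls and 4, 4 and 8 in the mutants and did not pass the filter on low counts, so it was not tested. As in Rsad2, control samples 1 and 3 were high and control sample 2 was as low as the mutants. Cxcl10, a chemokine induced by interferon, had 13 counts in mutant sample 3 and 0 in each of the other 5 samples, and was also singled out after its values were seen.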
